A study of Mus musculus with 12 samples.

Results

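HSF1 knock-out mouse embryonic fibroblasts (HSF1 KO MEF) and wild type MEF (WT MEF) were compared after both had spent 48 h in 20 mM LiCl. The comparison rests on 6 of the 12 RNA-seq libraries of the study, 3 of HSF1 KO MEF with LiCl and 3 of WT MEF with LiCl, which were chosen by their labelled genotype and treatment. The other 6 libraries hold the same genotypes without LiCl, 3 of each, and were used to ask whether a genotype difference was the same without the treatment. They also entered the filter on level and the estimate of the spread behind the p-values. MEF are cultured connective tissue cells of the mouse embryo. The labels followed here give the mutant cells as HSF1 KO, while one legend of the study writes them as heterozygous. The labels and methods used here do not say which part of Hsf1 was deleted, the sex or strain of the embryos, or whether a line is 1 clone. Separate cultures are not stated for the 3 libraries of a genotype either. The p-values therefore rest on a spread between libraries that could be technical only. In each group 1 library carries no number in its label, and it is called library 3 here, so that values are always given for libraries 1, 2 and 3 in that order.

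The deposited values were read as FPKM, a fragment count that is divided by transcript length and by library size, and the transcripts of each of 12988 genes were summed. Every transcript deposited had a mean of 0.5 FPKM or more in at least 1 of the 4 groups. Transcripts low in every group are thus absent from the sums, and a gene can be present through 1 group alone. Tests were run on 12279 genes, whose values averaged 0.5 FPKM or more across all 12 libraries. Shares called are shares of this set. Each difference given below is HSF1 KO minus WT on the log2(FPKM + 1) scale, where the change of a gene with low values comes out too small. A gene is called higher or lower in HSF1 KO MEF when limma's test, adjusted by Benjamini-Hochberg over all genes tested, gave an adjusted p under 0.05. The interaction is the genotype difference with LiCl minus that without LiCl, tested in the same fit.

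HSF1 is the transcription factor that mounts the heat shock response. When unfolded proteins accumulate, it forms trimers, binds heat shock elements (HSE) in promoters and switches on the genes of chaperones such as HSP70, HSP90 and their partners. LiCl blocks GSK3β, which otherwise labels β-catenin for destruction, and thereby turns on Wnt/β-catenin signalling. The comparison asks which genes of treated fibroblasts differ when HSF1 has been knocked out, and the study was about whether β-catenin acts through HSF1.

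An HSE is a row of units GAA and TTC that alternate at a spacing of 2 bases. Promoters of RefSeq (250 bases before to 50 after each start, GRCm38.p6) were searched for 3 alternating units, GAANNTTCNNGAA or TTCNNGAANNTTC, which are each other's reverse complement and cover both strands. They were found for 179 of 27025 genes with a promoter in that table (0.66%), and for 5 of the 57 genes with one there among 71 tested genes of the chaperone lists (8.77%). The windows of those 5 genes are shown because they hold the sequence that HSF1 is known to bind, beside genes that differ in what they did in HSF1 KO MEF. Capitals mark the units. The windows lie at chr9:18292260-18292288 on the forward strand for Chordc1, chr5:29735844-29735872 on the forward strand for Dnajb6, chr1:55088053-55088082 on the reverse strand for Hspd1 and chr5:149636280-149636308 on the reverse strand for Hsph1. Hspe1, which is transcribed away from Hspd1, has the Hspd1 window on its other strand. A match of letters is a description and not a measured binding site.
Chordc1: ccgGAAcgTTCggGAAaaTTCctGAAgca
Dnajb6: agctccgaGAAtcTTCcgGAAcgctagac
Hspd1: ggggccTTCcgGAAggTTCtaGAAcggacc
Hsph1: gctgcagaTTCtgGAAagTTCtcctcagt

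Of these 5 genes, Hsph1 was lower and Hspd1 higher in HSF1 KO MEF with LiCl. Over all genes tested 23.0% were lower and 19.6% higher, so these counts are near those shares. Hsph1, an HSP110 chaperone that releases nucleotide from HSP70, had 61.4, 65.2 and 70.8 FPKM in the WT libraries and 34.0, 37.9 and 39.9 in the KO libraries. The groups did not overlap, and the difference was -0.80 (standard error 0.08, adjusted p = 2.05e-05). Hspd1, the mitochondrial chaperonin HSP60, stood at 107, 110.4 and 116 FPKM in the WT libraries and 166, 171 and 178 in the KO libraries, all 3 above the WT libraries. Its difference was 0.62 (standard error 0.05, adjusted p = 4.99e-06). Hspe1, the cofactor of Hspd1 on the same window, had 256, 253 and 243 FPKM in the WT libraries and 289, 259 and 253 in the KO libraries and did not pass the test (difference 0.09, adjusted p = 0.456). Chordc1, an HSP90 cochaperone whose window holds 5 units in a row, had 28.5, 31.7 and 36.5 FPKM in the WT libraries and 25.7, 24.1 and 32.7 in the KO libraries (difference -0.23, adjusted p = 0.191), with overlapping groups. Dnajb6, an HSP40 protein that holds back aggregation, differed by 0.12 (adjusted p = 0.0847).

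Hsf1 itself, on the forward strand of chromosome 15 from 76477422 to 76501913 in GRCm38, had 14.5, 13.3 and 11.2 FPKM in the WT libraries and 3.65, 7.64 and 5.92 in the KO libraries. All 3 HSF1 KO libraries were below the WT libraries, with a difference of -1.10 (standard error 0.31, adjusted p = 0.0159). Without KO library 1 the difference was -0.85 (adjusted p = 0.0646), and without WT library 1 it was -1.02 (adjusted p = 0.0516). The remaining signal came mainly from 1 short transcript, ENSMUST00000228688.1, which has 3 exons near the 3′ end from 76499966 to 76500690. It had 5.36, 4.76 and 2.85 FPKM in the WT libraries and 3.34, 7.12 and 5.43 FPKM in the KO libraries, and the groups overlapped. By contrast, ENSMUST00000227478.1, which has 13 exons and spans the gene from 76477445 to 76500972, had 3.55, 3.75 and 4.05 FPKM in the WT libraries and 0, 0.0753 and 0 FPKM in the KO libraries. ENSMUST00000072838.5, with 12 exons, was listed at 2.25, 2.05 and 1.17 FPKM in WT MEF and at 0 in every HSF1 KO library. A low value was left for ENSMUST00000226872.1, also of 13 exons, at 0.12, 0.451 and 0.498 FPKM in HSF1 KO MEF against 0.668, 1.28 and 1.48 FPKM in WT MEF. ENSMUST00000228371.1, the other transcript of 13 exons, did not separate every library, with 2.24, 0 and 1.21 FPKM in the WT libraries and 0.192, 0 and 0 FPKM in the KO libraries. ENSMUST00000226238.1, which has 6 exons from 76498236 to 76500518, was low at 0.456, 1.52 and 0.492 FPKM in the WT libraries and was listed at 0 in every HSF1 KO library. The labelled genotypes were thus seen in ENSMUST00000227478.1, ENSMUST00000072838.5, ENSMUST00000226872.1 and ENSMUST00000226238.1, whose groups did not overlap in the 6 libraries with LiCl.

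The summed FPKM of the 12 libraries was 344208 to 370025, and no 2 libraries held the same values. With LiCl, Pearson's r across genes was 0.976 to 0.983 within a genotype and 0.928 to 0.933 between genotypes. Library 3 had the highest value of its group in every group along the fourth principal component, which held 2.88% of the variance. In HSF1 KO MEF with LiCl, library 1 (2.23) lay between library 2 (-16.5) and library 3 (15.5). The 2 cell populations also differed in Y-linked genes. Ddx3y, an RNA helicase gene of the Y chromosome, had 18.0, 22.6 and 19.7 FPKM in the WT libraries and 0.0352, 0 and 0.0101 in the KO libraries. Eif2s3y, a translation factor gene of the Y chromosome, had 14.9, 15.8 and 18.6 FPKM in the WT libraries and 0, 0 and 0.0505 in the KO libraries. HSF1 KO MEF therefore had almost none of the Y-linked RNA of WT MEF, and what comes with this difference between the cultures and what comes with the Hsf1 alleles cannot be told apart. The fibroblast markers Col1a1, Vim and Fn1 were at 129.5 FPKM or more in each of the 6 libraries with LiCl, while Fap, a marker of activated fibroblasts, had 0.337, 0.215 and 0.386 FPKM in the WT libraries and 0.249, 0.120 and 0.0674 in the KO libraries. The leukocyte marker Ptprc was listed at 0 in all 6, while 10 of 19 macrophage markers were called higher and 2 lower in HSF1 KO MEF, with values given below beside the lysosome genes. Without LiCl all 19, Ptprc among them, were called higher in HSF1 KO MEF.

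With LiCl, 5231 genes were called (42.6% of those tested). Of these, 2411 had a higher level (19.6%) and 2820 a lower one (23.0%) when HSF1 was knocked out, and the median difference over all genes was -0.03. The groups did not overlap for 5142 of the called genes, but they also did not overlap for 6504 of all 12279 genes tested. With 3 libraries a group, a lack of overlap is thus common. A difference of more than 1 was seen for 600 of the higher and 551 of the lower genes, and 157 genes (1.28%) passed an adjusted p under 0.01 with a difference of more than 2, of which 85 were higher and 72 lower. Without LiCl, 2181 genes were higher (17.8%) and 2503 lower (20.4%). The interaction was called for 3846 genes, 1971 positive (16.1%) and 1875 negative (15.3%).

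Of the 5231 genes called with LiCl, 2312 (44.2%) were called in the same direction without LiCl, 498 (9.52%) in the opposite direction and 2421 (46.3%) were not called without it. The last count does not by itself make a difference particular to treated cells. By the test of the difference itself, 2699 of the 5231 genes (51.6%) had an interaction, among them 893 of the 2312, all of the 498 and 1308 of the 2421. For the 498 this was close to fixed in advance, since differences of opposite sign add up in the interaction. The plot of the 2 genotype differences shows how the genes spread, with genes such as Lcn2 near the diagonal and genes such as Ogn, Atf3 and Cd68 in the quadrants where the sign turned.

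**Figure D1:**
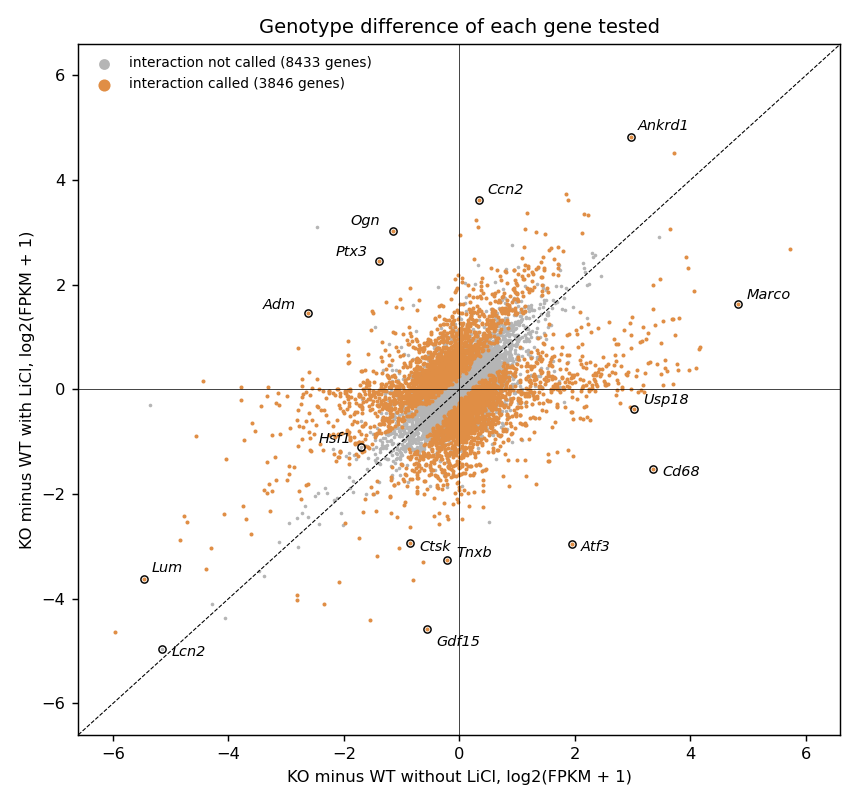
Difference between HSF1 KO MEF and WT MEF for each of 12279 genes, without LiCl (x axis) and with LiCl (y axis), both on the log2(FPKM + 1) scale. Orange points are the 3846 genes with a called interaction, grey points the other 8433, the dashed line marks equal differences, and circles mark named genes.

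In the HSP70 and HSP110 list, 4 of 12 genes tested were lower in HSF1 KO MEF with LiCl and 0 were higher, with a median of -0.13. Over all genes tested 23.0% were lower and 19.6% higher, so the count of lower genes is near that share. The 4 were Hsph1, Hspa12a, Hspa1a and Hspa1b. Hspa12a, a distant relative of HSP70, had 4.71, 4.68 and 4.93 FPKM in the WT libraries and 1.66, 1.35 and 1.70 in the KO libraries, a difference of -1.17 (standard error 0.09, adjusted p = 2.55e-06). Hspa1a and Hspa1b are the stress-inducible HSP70 genes, and because they are near-identical copies the split of reads between them is uncertain. Hspa1a had 21.0, 22.4 and 22.8 FPKM in the WT libraries and 13.4, 16.0 and 13.5 in the KO libraries and a difference of -0.60 (standard error 0.10, adjusted p = 0.000853). Hspa1b had 34.3, 32.9 and 35.4 FPKM in the WT libraries and 27.3, 29.0 and 29.7 in the KO libraries and a smaller difference of -0.25 (standard error 0.07, adjusted p = 0.0212). The Hspa1b call was lost without KO library 1, at -0.21 (adjusted p = 0.0774), without WT library 1 at -0.25 (adjusted p = 0.055) and without WT library 3 at -0.22 (adjusted p = 0.0694). Without LiCl, Hspa1a did not pass the test (difference 0.02, adjusted p = 0.909) and Hspa1b was higher in HSF1 KO MEF (difference 0.32, adjusted p = 0.00579). The interaction of both was negative, at -0.62 (standard error 0.15, adjusted p = 0.00868) for Hspa1a and -0.57 (standard error 0.11, adjusted p = 0.002) for Hspa1b. The constitutive Hspa8 and the HSP110 relative Hspa4 did not pass, with differences of -0.11 and -0.03 (adjusted p = 0.325 and 0.695).

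In the HSP90 list the called genes were higher, against a share of 19.6% higher over all genes. Of 14 genes tested 7 were higher in HSF1 KO MEF and 0 lower, with a median of 0.23. Without library 3 of every group 4 were higher, and 5 were higher with the 6 LiCl libraries alone and without WT library 2 or WT library 3. Pdcl3, a cofactor of protein folding related to phosducin, had 17.8, 17.0 and 17.5 FPKM in the WT libraries and 31.3, 35.8 and 29.9 in the KO libraries, a difference of 0.85 (standard error 0.08, adjusted p = 1.47e-05). Fkbp4, an immunophilin that binds HSP90, had 43.3, 42.2 and 42.1 FPKM in the WT libraries and 60.3, 66.7 and 59.4 in the KO libraries. Its difference of 0.53 was called with LiCl and was -0.06 without it (adjusted p = 0.562), with an interaction of 0.59 (standard error 0.10, adjusted p = 0.00127). Stip1, which joins HSP70 to HSP90, was at 117, 119 and 116 FPKM in the WT libraries and 145, 154 and 140.3 in the KO libraries, a difference of 0.32 (adjusted p = 0.00024). Hsp90ab1, the constitutive HSP90, was higher by 0.18 (adjusted p = 0.0158), while the inducible Hsp90aa1 had 196, 203 and 285 FPKM in the WT libraries and 225, 286 and 321 in the KO libraries with overlapping groups (difference 0.29, adjusted p = 0.243).

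Among HSP40 proteins and nucleotide exchange factors, 2 of 18 genes were higher and 3 lower, counts below the shares over all genes. Bag2, a cochaperone that inhibits the ubiquitin ligase CHIP, had 15.6, 15.8 and 15.9 FPKM in the WT libraries and 43.7, 46.8 and 48.5 in the KO libraries, the widest gap of the list, at 1.49 (standard error 0.07, adjusted p = 4.85e-08). Bag3, which links HSP70 to selective autophagy, had 49.0, 46.4 and 44.2 FPKM in the WT libraries and 36.5, 38.1 and 40.6 in the KO libraries and was lower with a difference of -0.27 (adjusted p = 0.00352). Dnaja4 was lower too, at -0.37 (adjusted p = 0.000421). Dnajb1, the best known stress-inducible HSP40, did not pass with LiCl, at 28.9, 27.3 and 26.5 FPKM in the WT libraries and 26.2, 27.5 and 27.8 in the KO libraries (difference -0.02, standard error 0.05, adjusted p = 0.81). Dnajb4 had 15.2, 15.3 and 18.2 FPKM in the WT libraries and 12.9, 14.0 and 32.2 in the KO libraries, where KO library 3 stood far above the other 5 (adjusted p = 0.782).

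The small heat shock proteins were split, with 2 of 7 higher and 2 lower. Hspb8, a partner of BAG3, had 72.7, 72.0 and 72.0 FPKM in the WT libraries and 38.5, 41.8 and 37.8 in the KO libraries, and the groups were far apart at -0.86 (standard error 0.06, adjusted p = 7.09e-07). Hspb2 was lower as well with a difference of -1.07 (adjusted p = 8.77e-05). Hspb1, which is HSP27 in human cells, was higher with 50.5, 54.3 and 45.4 FPKM in the WT libraries and 64.3, 81.7 and 60.1 in the KO libraries, a difference of 0.44 (standard error 0.12, adjusted p = 0.0126), and without WT library 3 this was 0.37 (adjusted p = 0.0502). Cryab, the αB-crystallin gene, had 151, 249 and 142 FPKM in the WT libraries and 177, 171 and 196 in the KO libraries and did not pass (adjusted p = 0.868). In the TRiC chaperonin, which folds actin and tubulin, 4 of 7 subunits tested were higher and 0 lower (Tcp1, Cct2, Cct3 and Cct5), with differences of 0.27 to 0.55. Without LiCl all 7 were higher, and the interaction was negative for 3.

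Mitochondrial chaperones and proteases had 5 of 13 genes lower and 2 higher. Apart from Hspd1, the other higher gene was Trap1, the mitochondrial HSP90, at 0.36 (adjusted p = 0.00135). Hspa9, the mitochondrial HSP70, had 297, 291 and 286 FPKM in the WT libraries and 255, 269.9 and 258 in the KO libraries. This small difference of -0.16 (standard error 0.04, adjusted p = 0.0142) was -0.14 (adjusted p = 0.0547) without KO library 1 and -0.14 (adjusted p = 0.0556) without WT library 1. Without LiCl Hspa9 was higher in HSF1 KO MEF by 0.28, and its interaction was -0.44 (standard error 0.06, adjusted p = 0.000374). The count of 5 lower genes in this list was 1 without WT library 1, 2 without KO library 1, 3 without WT library 2, WT library 3 or KO library 3, and 4 without KO library 2. After quantile normalization it was 2.

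**Figure D2:**
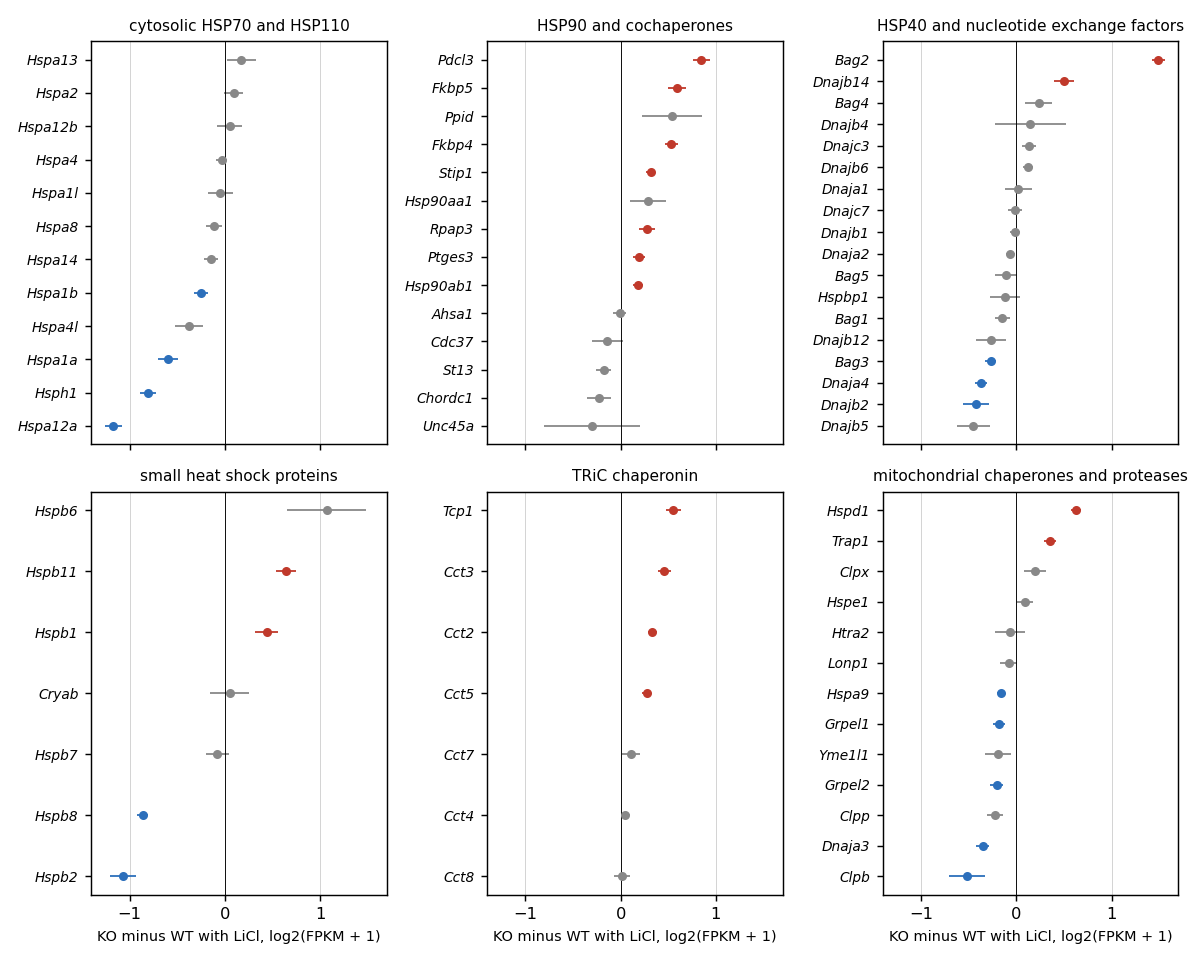
Difference between HSF1 KO MEF and WT MEF with LiCl, log2(FPKM + 1), for each gene tested in 6 chaperone lists, with the standard error as a bar. Red points were called higher, blue points lower and grey points were not called, and Bag2 at 1.49 lies farthest to the right and Hspa12a at -1.17 farthest to the left.

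Beyond the chaperones, Hsf4, a relative of HSF1 known for its role in the lens, had 10.8, 9.47 and 6.82 FPKM in the WT libraries and 1.97, 1.52 and 3.34 in the KO libraries. It was lower with a difference of -1.63 (standard error 0.22, adjusted p = 0.000159), while without LiCl it stood at 1.12 ± 0.381 and 1.08 ± 0.228 FPKM (SD, n = 3) in WT and HSF1 KO MEF, and its interaction was -1.62 (standard error 0.32, adjusted p = 0.00274). Hsf2, a partner of HSF1, did not pass, with 11.2, 12.2 and 13.6 FPKM in the WT libraries and 11.9, 11.2 and 12.4 in the KO libraries (adjusted p = 0.657). Metallothioneins bind zinc and copper, and 4 of 6 genes of their list were lower in HSF1 KO MEF and 0 higher. Mt3 had 51.2, 47.8 and 35.0 FPKM in the WT libraries and 2.99, 3.26 and 4.64 in the KO libraries, a difference of -3.30 (standard error 0.17, adjusted p = 1.13e-07). Mt1 and Mt2, the widely expressed members, were lower with differences of -0.93 and -1.07 (adjusted p = 0.000896 and 4.4e-05). Their genotype gap had been wider without LiCl, at -2.60 and -2.80, with interactions of 1.66 (standard error 0.23, adjusted p = 0.000303) and 1.72 (standard error 0.17, adjusted p = 3.15e-05), whereas that of Mt3 was -0.63 with an interaction of -2.67 (standard error 0.24, adjusted p = 1.47e-05). The metal sensor Mtf1, which turns these genes on, was lower with a difference of -0.38 (adjusted p = 0.00238).

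In the list of folding and the unfolded protein response of the endoplasmic reticulum, 5 of 23 genes were higher and 6 lower, near the shares over all genes. Ern1, which encodes the stress sensor IRE1α, had 17.2, 18.1 and 18.7 FPKM in the WT libraries and 7.06, 7.82 and 8.08 in the KO libraries and a difference of -1.13 (adjusted p = 2.79e-06). Ddit3, the gene of the stress factor CHOP, had 597, 579 and 519 FPKM in the WT libraries and 333, 352 and 304 in the KO libraries. It was lower with a difference of -0.78 (adjusted p = 0.000155) with LiCl, and without LiCl it was at 44.0 ± 4.71 and 49.2 ± 6.13 FPKM (SD, n = 3). The chaperone Pdia4 was higher, by 0.65 (adjusted p = 3.17e-06). Of 31 proteasome genes 9 were higher and 2 lower, and Psma7 led the higher ones at 0.54 (adjusted p = 2.23e-05).

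The 15 largest rises over WT MEF included genes of the contractile cytoskeleton and of matrix signals. Ankrd1, a muscle ankyrin repeat protein that also marks YAP activity, had 1.16, 1.11 and 0.945 FPKM in the WT libraries and 61.0, 59.5 and 52.6 in the KO libraries, a difference of 4.82 (standard error 0.09, adjusted p = 7.98e-11). Acta2, the smooth muscle actin that defines myofibroblasts, had 152, 148 and 150.0 FPKM in the WT libraries and 1853, 2042 and 1678 in the KO libraries, which is 12.4 times the WT mean, and its difference was 3.62. The gap of both genes was wider with LiCl than without, with interactions of 1.86 (standard error 0.12, adjusted p = 1.47e-06) for Ankrd1 and 1.74 (standard error 0.12, adjusted p = 2.39e-06) for Acta2. In the myofibroblast list 13 of 14 genes were higher and 1 lower, with a median of 2.36, and 11 had a positive interaction. Their summed level was 769 to 819.7 FPKM in the WT libraries and 4490.1 to 5285 FPKM in the KO libraries. Cnn1, the actin-binding calponin, had 7.93, 8.87 and 8.63 FPKM in the WT libraries and 90.0, 104 and 91.8 in the KO libraries. Lmod1, a nucleator of actin filaments in smooth muscle, stood at 2.60, 2.75 and 2.90 FPKM in the WT libraries and 34.6, 39.1 and 39.3 in the KO libraries. Actg2 and Myl9, an actin and a myosin light chain of smooth muscle, were higher by 3.34 and 3.73 (adjusted p = 8.29e-09 and 1.53e-06), and KO library 2 was the highest for Myl9 at 536 FPKM.

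**Figure D3:**
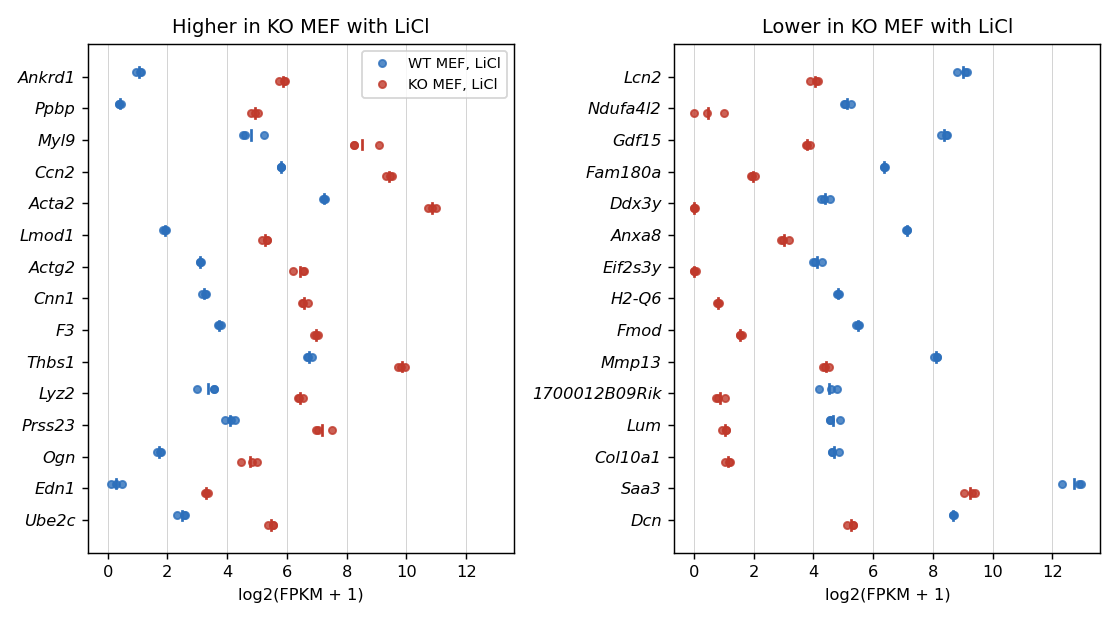
Level of the 15 genes with the largest rise (left) and the 15 with the largest fall (right) in HSF1 KO MEF against WT MEF with LiCl, log2(FPKM + 1). Each point is 1 library, 3 per group, and the short vertical line is the group mean. The groups do not overlap for any of the 30 genes, a condition set when they were chosen.

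The matrix signal genes Ccn1 and Ccn2 are targets of YAP and of TGF-β. Ccn2, also known as connective tissue growth factor, had 55.4, 55.2 and 54.2 FPKM in the WT libraries and 704, 726 and 643 in the KO libraries, a difference of 3.63 (standard error 0.07, adjusted p = 1.34e-10), while without LiCl the difference was 0.34. Ccn1 had 80.6, 78.8 and 82.2 FPKM in the WT libraries and 359.6, 376 and 336 in the KO libraries, and without LiCl it did not pass (difference 0.05, adjusted p = 0.513). The interactions were 3.29 (standard error 0.10, adjusted p = 1.6e-08) for Ccn2 and 2.08 (standard error 0.08, adjusted p = 6.03e-08) for Ccn1. In the list of TGF-β and CCN genes 8 of 14 were higher, 2 lower, and 9 had a positive interaction. Tgfb3, a ligand of the TGF-β family, had 16.2, 16.3 and 17.3 FPKM in the WT libraries and 58.8, 59.9 and 60.9 in the KO libraries. Ltbp1, which stores that ligand in the matrix, differed by 2.29 (adjusted p = 1.28e-08). Thbs1, a thrombospondin that can release active TGF-β, stood at 101, 102 and 113 FPKM in the WT libraries and 908, 848 and 992 in the KO libraries. F3, the tissue factor that starts coagulation, had 12.9, 12.2 and 12.1 FPKM in the WT libraries and 131, 123 and 120.3 in the KO libraries, and its interaction was 2.95 (standard error 0.08, adjusted p = 8.2e-09). Edn1, the precursor of the vasoconstrictor endothelin, was near 0 in WT MEF at 0.213, 0.408 and 0.0750 FPKM and had 9.26, 8.65 and 8.73 FPKM in HSF1 KO MEF. The chemokine precursor Ppbp (4.52) and the serine protease Prss23 (3.07) were also among the 15 largest rises (adjusted p = 3.61e-09 and 1.86e-07).

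Genes of cell division were higher in HSF1 KO MEF as a group. All 25 of the 25 mitosis genes were higher, with a median of 1.90, and 14 had a positive interaction. Their summed level was 45.8 to 47.3 FPKM in the WT libraries and 285 to 292 FPKM in the KO libraries. In bulk RNA, fewer cells of a kind, such as dividing cells, and less RNA per cell cannot be told apart. Top2a, the topoisomerase that untangles chromosomes, had 2.09, 2.08 and 2.02 FPKM in the WT libraries and 18.1, 18.4 and 21.1 in the KO libraries. Birc5, which encodes survivin, stood at 3.55, 3.95 and 3.33 FPKM in the WT libraries and 29.2, 27.3 and 26.9 in the KO libraries. Ube2c, the ubiquitin enzyme of the anaphase complex, was at 5.07, 4.02 and 4.95 FPKM in the WT libraries and 45.6, 45.0 and 40.6 in the KO libraries, a difference of 2.98 (standard error 0.13, adjusted p = 3.15e-08). Without LiCl all 25 were higher as well, with a median of 1.45. The 14 interactions were 8 without library 3 of every group and 10 with a pseudocount of 0.1, since many of these genes were low in WT MEF. For DNA replication 23 of 29 genes were higher and 0 lower. The helicase subunit Mcm5 had 2.85, 2.87 and 2.50 FPKM in the WT libraries and 14.5, 17.0 and 16.8 in the KO libraries, and Mcm3 and Orc1 of the origin complexes were higher by 2.08 and 2.03 (adjusted p = 6.07e-08 and 1.56e-07).

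Regulators of the cycle went both ways. Of 10 D-type cyclins and CDK inhibitors 2 were higher and 4 lower. Cdkn1a, the p53 target p21, had 691, 694 and 642 FPKM in the WT libraries and 486, 538 and 483 in the KO libraries and was lower with a difference of -0.43 (adjusted p = 0.000375). Cdkn2a, the INK4a and ARF gene, was higher at 131, 128 and 126 FPKM in the WT libraries and 227, 208 and 205 in the KO libraries, a difference of 0.73 (adjusted p = 6.7e-05). Cdkn2c, which encodes p18, was lower with a difference of -1.25 (adjusted p = 3.51e-06). Rb1, the retinoblastoma gene, was lower with 25.6, 25.4 and 30.2 FPKM in the WT libraries and 12.4, 10.5 and 14.7 in the KO libraries, a difference of -1.06 (standard error 0.12, adjusted p = 3.6e-05). Among p53 targets 14 of 20 were lower and 2 higher, with a median of -0.58. Perp, a membrane protein of p53-driven cell death, had 154, 152 and 152 FPKM in the WT libraries and 46.5, 48.8 and 52.0 in the KO libraries. Its difference was -1.62 with LiCl and -0.20 without it (adjusted p = 2.33e-07 and 0.13), an interaction of -1.42 (standard error 0.13, adjusted p = 1.67e-05). Mdm2, the ubiquitin ligase that removes p53, was lower with a difference of -0.69 (adjusted p = 0.00374), and Ei24 with one of -0.91 (adjusted p = 3.72e-07). The 2 higher targets were Plk2 and Pmaip1, at 0.29 and 0.29 (adjusted p = 0.000297 and 0.0137).

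Targets of ATF4, the factor of the integrated stress response, went both ways. In total 12 of 25 were higher and 6 lower. Phgdh, the first enzyme of serine synthesis, had 20.6, 17.5 and 20.8 FPKM in the WT libraries and 96.8, 114 and 98.1 in the KO libraries, a difference of 2.33 (standard error 0.08, adjusted p = 6.66e-09). Psat1, the next enzyme, was at 10.4, 10.8 and 12.9 FPKM in the WT libraries and 37.9, 40.1 and 43.9 in the KO libraries. Mthfd2, a mitochondrial folate enzyme, and Asns, asparagine synthetase, were higher by 1.47 and 1.29 (adjusted p = 1.8e-08 and 1.82e-06). The 6 lower members included Gdf15 and Atf3. Gdf15, a secreted stress cytokine, had 354, 346 and 305 FPKM in the WT libraries and 12.7, 13.8 and 12.4 in the KO libraries, 25.8 times lower on the means, with a difference of -4.59 (standard error 0.09, adjusted p = 1.34e-10). Without LiCl it stood at 7.35 ± 0.641 (WT) and 4.67 ± 0.499 (KO) FPKM (SD, n = 3), and the interaction was -4.03. Atf3, a transcription factor of the same response, had 57.1, 52.9 and 50.2 FPKM in the WT libraries and 9.24, 2.16 and 9.60 in the KO libraries, with KO library 2 the lowest. Atf4 itself did not pass (difference -0.23, adjusted p = 0.0832).

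Immediate early genes, which answer growth factors within minutes, were mostly lower, with 11 of 18 lower and 3 higher. Egr1 had 42.2, 46.4 and 41.9 FPKM in the WT libraries and 13.9, 13.1 and 12.7 in the KO libraries, a difference of -1.64 (adjusted p = 1.47e-08). Fos had 21.4, 20.4 and 20.8 FPKM in the WT libraries and 8.06, 7.89 and 7.28 in the KO libraries, and both had negative interactions of -1.22 (standard error 0.09, adjusted p = 3.23e-06) for Egr1 and -1.01 (standard error 0.10, adjusted p = 2.99e-05) for Fos. The higher members included Myc, with 2.51, 3.34 and 2.80 FPKM in the WT libraries and 19.7, 21.4 and 14.5 in the KO libraries, a difference of 2.32 (standard error 0.16, adjusted p = 7.09e-07). Fosl2, a partner of JUN, was higher by 1.24 (adjusted p = 1.75e-07).

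The 15 largest falls included genes of inflammation and of the matrix. Lcn2, the iron-binding acute phase protein lipocalin 2, had 537, 563 and 452 FPKM in the WT libraries and 16.2, 16.9 and 13.8 in the KO libraries, the largest fall of the 15, at -4.96 (standard error 0.14, adjusted p = 1.6e-09). Its difference without LiCl was close in size (-5.14), and the interaction did not pass (0.18, adjusted p = 0.533). Saa3, another acute phase gene, had 7973, 7635 and 5083 FPKM in the WT libraries and 639, 677 and 525 in the KO libraries, with WT library 3 the lowest of the WT libraries. Complement and acute phase genes were lower in 10 of 13 cases and higher in 2, with a median of -1.68 with LiCl and -2.80 without. The interaction was positive for 9 and negative for 1, so the gap was narrower with LiCl for most of them. Cfb, complement factor B, had 9.34, 9.14 and 10.3 FPKM in the WT libraries and 1.06, 1.22 and 1.08 in the KO libraries, and C1s1, a protease of the classical pathway, was lower with a difference of -1.94 (adjusted p = 7.88e-09). In contrast, Ptx3, a secreted pattern recognition protein, was higher with LiCl at 2.92, 3.95 and 3.06 FPKM in the WT libraries and 22.5, 22.0 and 22.7 in the KO libraries and had a difference of -1.39 without it (adjusted p = 4.94e-09 and 1.71e-07).

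MHC class I genes, which present peptides to T cells, were lower in 10 of 15 cases and higher in 0, with a median of -0.65. H2-K1, a classical gene, had 161, 159.7 and 146 FPKM in the WT libraries and 36.6, 41.1 and 33.2 in the KO libraries. H2-D1, the other classical gene named, had 415, 409 and 368 FPKM in the WT libraries and 152, 179 and 149 in the KO libraries. Their differences were -2.05 and -1.31 (adjusted p = 2.62e-08 and 5.73e-07), wider than without LiCl, with interactions of -0.85 (standard error 0.12, adjusted p = 0.000345) and -0.90 (standard error 0.12, adjusted p = 0.000218). H2-Q6 had 28.3, 27.5 and 26.8 FPKM in the WT libraries and 0.724, 0.787 and 0.761 in the KO libraries, and since the H2-Q genes are near-identical copies the split among them is uncertain. Other large falls were Ndufa4l2 and Anxa8. Ndufa4l2, a mitochondrial protein induced by low oxygen, had 32.0, 37.3 and 32.5 FPKM in the WT libraries and 0.358, 1.03 and 0 in the KO libraries. Anxa8, an annexin that binds membranes with calcium, had 141, 138 and 139.7 FPKM in the WT libraries and 6.61, 8.06 and 7.00 in the KO libraries, a difference of -4.10 (standard error 0.07, adjusted p = 6.65e-11). Fam180a, whose function is little known, was at 81.0, 84.1 and 80.6 FPKM in the WT libraries and 3.14, 2.76 and 2.88 in the KO libraries, and 1700012B09Rik was lower with a difference of -3.65 (adjusted p = 3.72e-08).

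Matrix genes went both ways. Of 20 collagens 11 were higher and 5 lower. Col1a1 and Col1a2, the chains of collagen I, were higher with LiCl, at 139, 136 and 129.5 FPKM in the WT libraries and 253, 287 and 250.3 in the KO libraries for Col1a1 and a difference of 0.96 for Col1a2 (adjusted p = 5.49e-07). Without LiCl neither passed (differences 0.05 and -0.02, adjusted p = 0.749 and 0.853), and both interactions were positive, at 0.91 (standard error 0.13, adjusted p = 0.000414) for Col1a1 and 0.98 (standard error 0.09, adjusted p = 1.3e-05) for Col1a2. Col6a3, a chain of the microfibrillar collagen VI, was far lower, at 52.7, 53.6 and 58.7 FPKM in the WT libraries and 4.94, 4.78 and 5.91 in the KO libraries, a difference of -3.18 (standard error 0.11, adjusted p = 5.98e-09). Col10a1, the collagen of hypertrophic cartilage, had 23.5, 23.9 and 27.8 FPKM in the WT libraries and 1.05, 1.24 and 1.30 in the KO libraries. The small leucine-rich proteoglycans, which bind collagen fibrils, were divided. Decorin, Dcn, had 408, 410.5 and 418 FPKM in the WT libraries and 38.9, 33.7 and 38.8 in the KO libraries. Lumican, Lum, had 22.3, 22.7 and 28.5 FPKM in the WT libraries and 0.945, 1.12 and 1.09 in the KO libraries. Fibromodulin, Fmod, had 42.2, 44.3 and 45.6 FPKM in the WT libraries and 1.89, 1.89 and 2.04 in the KO libraries. These 3 were lower by a wide margin in every HSF1 KO library. Ogn, of the same family, was higher instead, with 2.44, 2.18 and 2.36 FPKM in the WT libraries and 27.6, 21.1 and 30.7 in the KO libraries, a difference of 3.03 (standard error 0.15, adjusted p = 6.95e-08). Mmp13 and Mmp3, collagenase and stromelysin, were lower with differences of -3.69 and -1.97 (adjusted p = 3.65e-11 and 9.44e-09). In the wider matrix list 11 of 27 genes were higher and 10 lower, and 17 had a positive interaction.

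**Figure D4:**
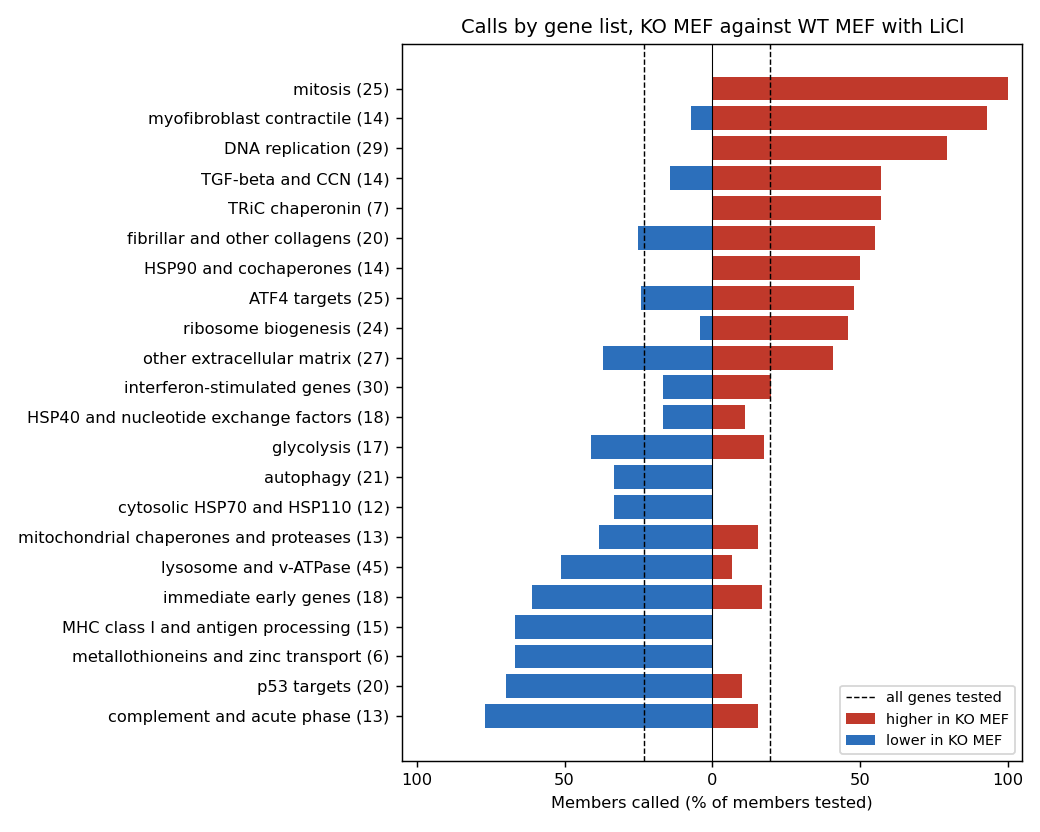
Share of the members of 22 gene lists that were called lower (blue, to the left) or higher (red, to the right) in HSF1 KO MEF against WT MEF with LiCl, in percent of the members tested, whose number follows each name. The dashed lines are the shares over all genes tested, 23.0% lower and 19.6% higher, and the mitosis bar reaches all 25 members.

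More lysosome genes were lower than higher with LiCl, and more were higher than lower without it. With LiCl 23 of 45 were lower in HSF1 KO MEF and 3 higher (median -0.37), and without LiCl 5 were lower and 21 higher (median 0.32). The interaction was negative for 27 and positive for 1. Ctsk, the collagen-degrading cathepsin K, had 124, 124 and 122 FPKM in the WT libraries and 15.6, 15.9 and 14.0 in the KO libraries, a difference of -2.94 (standard error 0.07, adjusted p = 4.29e-10). Gla, α-galactosidase A, had 43.7, 47.6 and 48.7 FPKM in the WT libraries and 16.0, 16.5 and 17.5 in the KO libraries. The subunit Atp6v1b2 of the proton pump that acidifies lysosomes was at 91.4, 102 and 93.7 FPKM in the WT libraries and 38.8, 41.9 and 42.9 in the KO libraries, and its difference turned from 0.32 without LiCl to -1.19 with it, an interaction of -1.51 (standard error 0.10, adjusted p = 1.25e-06). Gpnmb, a membrane glycoprotein of lysosomes, had 216, 218 and 204 FPKM in the WT libraries and 90.2, 86.6 and 86.1 in the KO libraries, with differences of 1.97 without and -1.27 with LiCl. The 3 higher genes were Ctss, Glb1 and Ctsc. Ctss, a cathepsin abundant in macrophages, had 0.153, 0.754 and 0.502 FPKM in the WT libraries and 6.68, 8.09 and 7.51 in the KO libraries. Among autophagy genes 7 of 21 were lower and 0 higher, and the count of lower genes is near the share of 23.0% over all genes tested. This count was 6 to 8 when 1 library with LiCl was left out. Sqstm1, the receptor p62, had 588, 572 and 535 FPKM in the WT libraries and 320.3, 345 and 304 in the KO libraries, a difference of -0.81 (standard error 0.07, adjusted p = 3.59e-06). Wipi1, an early autophagosome protein, was lower with a difference of -0.77 (adjusted p = 4.03e-06).

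Markers of macrophages moved with genotype and treatment. Their summed level was 41.3 to 45.4 FPKM in the WT libraries with LiCl, 107 to 123 in the KO libraries with LiCl, 122 to 129 in WT MEF without LiCl and 1480.1 to 1698 in HSF1 KO MEF without LiCl. With LiCl 10 of 19 were higher and 2 lower, and without LiCl all 19 were higher. The interaction was negative for all 19 in the main fit, but for 15 with a pseudocount of 0.1. With that pseudocount 10 were still higher and 2 lower with LiCl, and their median difference was larger than the 0.37 of the main fit. The count and size of these interactions thus depend in part on the pseudocount, since most of the markers were low with LiCl. The filter averaged all 12 libraries, so a marker could pass it mainly through HSF1 KO MEF without LiCl, where the summed level was highest. For such a marker a higher call without LiCl and a negative interaction were favoured by the filter, so these counts are a description. Lyz2, the lysozyme of myeloid cells, had 6.89, 10.7 and 10.9 FPKM in the WT libraries and 82.9, 92.8 and 81.9 in the KO libraries and made up most of the level in the KO libraries with LiCl. Cd14, a receptor of bacterial lipopolysaccharide that is not limited to macrophages, had 21.9, 20.8 and 19.7 FPKM in the WT libraries and 8.62, 9.55 and 7.33 in the KO libraries, the highest value of the list in the WT libraries. The remaining markers apart from Cd68 were at 4.14 FPKM or less in each of these 6 libraries. Adgre1, the F4/80 antigen, had 0, 0.249 and 0.143 FPKM in the WT libraries and 1.95, 2.16 and 1.48 in the KO libraries, and Ptprc, the leukocyte antigen CD45, was listed at 0 in all 6 libraries. Ptprc was not absent from the cultures without LiCl, where it was called higher in HSF1 KO MEF like the other markers. Cd68, a lysosomal glycoprotein of macrophages and other cells, was lower with LiCl at 11.0, 11.6 and 10.3 FPKM in the WT libraries and 3.34, 3.35 and 2.77 in the KO libraries, against 3.39 ± 1.15 (WT) and 42.8 ± 0.758 (KO) FPKM without it (SD, n = 3). Marco, a scavenger receptor of macrophages, had 0.0998, 0.337 and 0.306 FPKM in the WT libraries and 2.95, 3.47 and 2.20 in the KO libraries, and its difference was 4.82 without LiCl. In bulk RNA, macrophages in the cultures and marker RNA made by the MEF cannot be told apart. The part of either in the lysosome and interferon results without LiCl, and so in their interactions, was not tested.

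Interferon-stimulated genes were called less often in the comparison with LiCl than in the one without, and most had an interaction. Of 30 tested 6 were higher and 5 lower, near the shares over all genes, with a median of -0.05. The 5 lower genes were 3 without WT library 3. Without LiCl 28 were higher and 1 lower with a median of 1.54, and 26 had a negative interaction. Usp18, which removes ISG15 and damps the interferon signal, had 7.05, 6.95 and 8.74 FPKM in the WT libraries and 5.75, 6.15 and 4.81 in the KO libraries with LiCl and 8.04 ± 0.335 and 72.4 ± 5.47 FPKM without it (SD, n = 3). Its difference with LiCl was -0.38 (standard error 0.10, adjusted p = 0.0122), and the interaction -3.40 (standard error 0.15, adjusted p = 1.01e-07). With the 6 LiCl libraries fitted alone, the Usp18 difference had an adjusted p of 0.0586. Ifi27 was lower with LiCl at 94.6, 90.2 and 80.7 FPKM in the WT libraries and 22.2, 22.9 and 21.0 in the KO libraries, while Bst2, which tethers virus to cells, was higher by 0.49 (adjusted p = 0.000881).

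**Figure D5:**
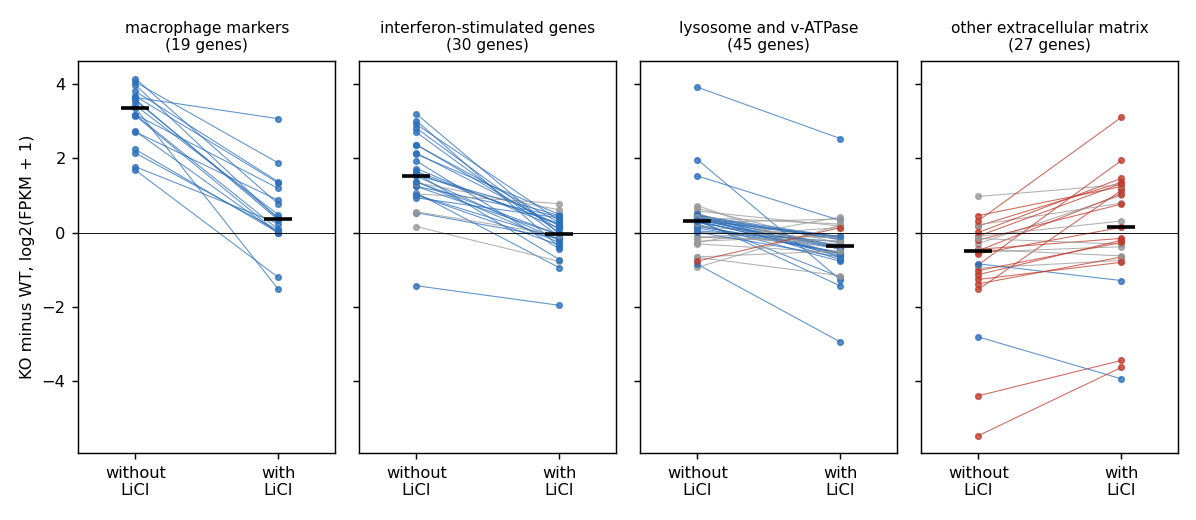
Difference between HSF1 KO MEF and WT MEF, log2(FPKM + 1), without and with LiCl for each gene tested in 4 lists, joined by a line that is blue where the interaction was negative, red where it was positive and grey where it was not called. The black bar is the median of the list, which went from 1.54 to -0.05 for interferon-stimulated genes and from 0.32 to -0.37 for lysosome genes.

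Because LiCl acts on β-catenin, targets of the Wnt pathway were listed. With LiCl 6 of 21 were higher and 5 lower, with a median of 0.04, near the shares of 19.6% higher and 23.0% lower over all genes. Without LiCl 4 were higher and 14 lower, against 17.8% and 20.4% over all genes. The interaction was positive for 14 and negative for 0, against 16.1% and 15.3% over all genes. Axin2, the most general target of the pathway, had 2.88, 3.13 and 2.71 FPKM in the WT libraries and 3.15, 3.27 and 2.63 in the KO libraries with LiCl and overlapping groups (difference 0.04, adjusted p = 0.845), whereas without LiCl it was 1.11 ± 0.381 (WT) and 0.321 ± 0.0909 (KO) FPKM (SD, n = 3). Its interaction was 0.70 (standard error 0.18, adjusted p = 0.0149). Lef1, a transcription factor that binds β-catenin, was low but higher in HSF1 KO MEF, at 0.226, 0.206 and 0.250 FPKM in the WT libraries and 0.993, 0.661 and 0.937 in the KO libraries (difference 0.60, adjusted p = 0.000416). Ccnd1, cyclin D1, had 109.8, 108 and 117 FPKM in the WT libraries and 132, 128 and 145 in the KO libraries and was higher by 0.27 (adjusted p = 0.00405). Sfrp2 and Dkk3, secreted proteins of the Wnt antagonist families, were lower with differences of -1.39 and -0.87 (adjusted p = 1.54e-06 and 7.35e-07). Ctnnb1, the β-catenin gene, had 43.2, 39.7 and 47.5 FPKM in the WT libraries and 56.9, 43.8 and 38.4 in the KO libraries and did not pass (difference 0.08, standard error 0.14, adjusted p = 0.696). Of 12 genes around the destruction complex 1 was higher, Btrc, and 2 were lower, Dvl1 and Apc2.

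The study also followed m6A RNA methylation and glutamine metabolism. Mettl3, the catalytic m6A writer, had 4.20, 3.34 and 5.40 FPKM in the WT libraries and 4.07, 4.09 and 2.53 in the KO libraries with overlapping groups (difference -0.22, adjusted p = 0.625). Ythdf1, a reader that promotes translation, was at 34.6, 34.3 and 36.6 FPKM in the WT libraries and 32.0, 34.8 and 36.2 in the KO libraries (difference -0.04, adjusted p = 0.672). Of 17 m6A genes 3 were higher and 1 lower, and Igf2bp3, an mRNA-stabilising reader, was higher at 4.39, 4.29 and 4.50 FPKM in the WT libraries and 11.3, 11.7 and 11.6 in the KO libraries, a difference of 1.22 (adjusted p = 1.21e-07). Gpt2, the mitochondrial alanine transaminase, was higher at 4.20, 3.93 and 4.10 FPKM in the WT libraries and 9.91, 11.5 and 10.7 in the KO libraries, a difference of 1.20 (standard error 0.07, adjusted p = 4.17e-07), while Glul, glutamine synthetase, was lower with a difference of -0.49 (adjusted p = 0.00222). Of the other genes the study names, Kif21a, a kinesin, was lower at 7.57, 7.41 and 8.80 FPKM in the WT libraries and 4.20, 4.49 and 4.11 in the KO libraries (difference -0.76, adjusted p = 0.000423). Tma16, linked to ribosome assembly in yeast, and Col27a1, a fibrillar collagen, had overlapping groups and did not pass (adjusted p = 0.136 and 0.982). Dedd2, a death effector domain protein, was below the filter and was not tested, with 1.19, 0.915 and 1.11 FPKM in the WT libraries and 0.069, 0.988 and 0.0491 FPKM in the KO libraries.

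For 231 genes the difference was higher with LiCl and lower without it, and for 267 the reverse. Ogn stood at 16.4 ± 3.23 (WT) and 6.80 ± 0.407 (KO) FPKM without LiCl (SD, n = 3), the opposite order to the treated cells. Lox, the enzyme that cross-links collagen, had 21.2, 22.8 and 21.7 FPKM in the WT libraries and 90.4, 73.7 and 99.9 in the KO libraries with LiCl, against 1771 ± 79.1 and 977 ± 71.4 FPKM without it. Igfbp3, a binding protein of insulin-like growth factors, had 2.98, 2.75 and 3.36 FPKM in the WT libraries and 11.3, 12.5 and 13.4 in the KO libraries, and its difference turned from -1.03 to 1.74. Adm, the vasodilator peptide adrenomedullin, was at 20.8, 18.7 and 21.2 FPKM in the WT libraries and 57.7, 61.1 and 53.6 in the KO libraries, and without LiCl at 211 ± 8.65 FPKM in the WT libraries and 33.3 ± 1.71 FPKM in the KO libraries. In the other direction, Atf3 was 1.82 ± 0.180 FPKM in the WT libraries and 9.88 ± 1.37 FPKM in the KO libraries without LiCl. Cd300lb, an activating receptor of myeloid cells, had 6.93, 6.85 and 6.92 FPKM in the WT libraries and 1.51, 0.969 and 1.34 in the KO libraries with LiCl and a difference of 1.32 without it. Kcnn4, a calcium-gated potassium channel, and Tnfrsf26, a decoy receptor, turned from 0.76 and 0.25 to -1.66 and -1.96. Tnxb, the matrix protein tenascin-X, was not called without LiCl (-0.21, adjusted p = 0.0663) and had 12.2, 13.1 and 12.8 FPKM in the WT libraries and 0.512, 0.452 and 0.315 in the KO libraries with it.

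Metabolic and housekeeping lists were counted in the same way. Ribosome biogenesis had 11 of 24 genes higher and 1 lower, with Ncl, nucleolin, at 64.5, 66.8 and 70.3 FPKM in the WT libraries and 91.6, 96.8 and 94.8 in the KO libraries. Of 32 ribosomal protein genes 10 were higher and 0 lower, but this count was 4 without WT library 2 or KO library 2, 5 without WT library 3 and 6 without KO library 1, and copies of these genes make their levels uncertain. Glycolysis had 7 of 17 lower and 3 higher, with Tpi1 lower with a difference of -0.43 (adjusted p = 0.000279), and 4 were lower without KO library 1. Oxidative phosphorylation had 1 of 31 higher, 3 lower and a median of -0.01. Of 18 NRF2 targets 4 were higher and 6 lower. Nqo1, a quinone reductase, had 85.0, 75.5 and 82.0 FPKM in the WT libraries and 27.9, 28.9 and 30.0 in the KO libraries, a difference of -1.45 (standard error 0.09, adjusted p = 2.84e-07), whereas Txnrd1, thioredoxin reductase, was higher by 0.54 (adjusted p = 1.73e-05). Cholesterol and fatty acid synthesis was split, with 8 of 25 higher and 9 lower. Chemokines and cytokines had 11 of 24 higher and 9 lower. Cxcl12, a homing chemokine of stromal cells, had 0.921, 1.08 and 1.00 FPKM in the WT libraries and 7.38, 8.11 and 8.31 in the KO libraries, and Il1rl1, the receptor of IL-33, was lower with a difference of -1.32 (adjusted p = 5.02e-07).

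Markers of fibroblasts and genes of body position were counted last. Of 16 fibroblast markers 6 were higher and 7 lower with LiCl. Pdgfra, a growth factor receptor of fibroblasts, had 8.13, 9.50 and 9.37 FPKM in the WT libraries and 2.06, 2.04 and 0.962 in the KO libraries, and Thy1 was lower with a difference of -0.78 (adjusted p = 4.41e-06). Hox genes, which record the body position that cells came from, were higher in 12 and lower in 7 of 35 cases. Other regional factors were higher in 8 and lower in 11 of 42 cases, near the shares over all genes, as was the count of lower Hox genes. Hoxc13 had 13.0, 13.8 and 13.3 FPKM in the WT libraries and 3.68, 2.71 and 3.34 in the KO libraries, whereas Hoxb5 was listed at 0 in every WT library and had 1.18, 1.54 and 1.37 FPKM in HSF1 KO MEF. Barx1, a regional homeobox gene of stomach and jaw mesenchyme, had 6.43, 5.15 and 4.55 FPKM in the WT libraries and 0, 0.229 and 0 in the KO libraries. Their differences without LiCl had the same sign, at -1.39, 1.03 and -2.44, and none of the 3 had a called interaction (adjusted p = 0.0556, 0.201 and 0.724). Cartilage and bone markers were lower in 4 of 7 cases and higher in 1, with Comp, a cartilage matrix protein, at 6.39, 7.54 and 7.08 FPKM in the WT libraries and 0.172, 0.0509 and 0.0575 in the KO libraries. By chromosome, 6 of 7 genes tested on Y were lower and none higher. On X 26.49% of 404 genes were higher and 15.35% lower, against 17.25% to 21.55% higher and 21.25% to 28.15% lower on the autosomes. Around Hsf1 on chromosome 15, where 25.77% of all 489 genes were lower and 20.45% higher, 9 of 57 genes within 1 Mb were lower and 10 higher. At 1 to 5 Mb 26 of 81 were lower and 14 higher, at 5 to 10 Mb 19 of 58 were lower and 10 higher, and farther away 71 of 292 were lower and 66 higher.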

How the data were processed

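RNA from MEF of both genotypes, with and without LiCl, was sequenced, and the authors deposited 1 FPKM value per transcript and library in a table of 27185 transcripts. The highest group mean of a transcript there was never below 0.5 FPKM. No source used here names the unit, which was read from the values as FPKM. The submitters' processing notes name HISAT2 2.0.5, StringTie, cutadapt and the build GRCm38, and depth is unknown because no counts were used. Precision was taken from the spread of 3 libraries per group. Transcripts were joined to genes by GENCODE vM21, summed, and tested on log2(FPKM + 1) with limma 3.58.1 (eBayes with a trend, 1 mean for each of 4 groups, 12 libraries), after a filter at a mean of 0.5 FPKM, with Benjamini-Hochberg adjustment and a threshold of 0.05. The script was tested on simulated data. The genes and lists were chosen with earlier results of these data known. Named were Hsf1, the 15 largest rises and 15 largest falls among called genes that averaged 1 FPKM or more with LiCl and whose groups did not overlap, the 8 largest interactions in each direction, the 6 largest changes of direction each way, up to 4 members of each list by adjusted p with others where a group needed them, and genes the study names, of which 1 is not reported here. Promoters were found for 79.47% of tested genes, under 80%, so a comparison of motifs between called groups was void. Alternatives were other pseudocounts, filters, scalings, fits and libraries left out. Set tests were not run.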

Additional observations from a re-analysis of the deposited data

Results flagged for a closer look

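For 24 genes named by their interaction or their change of direction, the genotype difference with LiCl differed from that without LiCl by the test of the interaction in limma. It was higher with LiCl for Ogn (4.17), Adm (4.09), Ptx3 (3.84), Igfbp5 (3.59), Ccn2 (3.29), Angptl7 (3.02), Lrrc17 (2.96), F3 (2.95), Olfml2b (2.94), Lox (2.81), Igfbp3 (2.77) and Prss35 (2.41), where each value is the difference with LiCl minus that without on the log2(FPKM + 1) scale. It was lower with LiCl for Atf3 (-4.90), Cd68 (-4.88), Gdf15 (-4.03), Usp18 (-3.40), Gpnmb (-3.24), Marco (-3.20), Cd300lb (-3.13), Tnxb (-3.06), Lipn (-2.81), Kcnn4 (-2.42), Tnfrsf26 (-2.20) and Vwf (-1.97). The adjusted p-values, over all genes tested, were 8.96e-10 to 4.47e-05. These genes were picked for a large interaction or a change of direction, so the sizes are a description. The macrophage markers Cd68 and Marco are among them, and the summed level of such markers without LiCl was 122 to 129 FPKM in the WT libraries and 1480.1 to 1698 FPKM in the KO libraries. Its part in these differences was not tested.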

How the results depend on the processing

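The count of 5231 called genes was 4875 with the 6 LiCl libraries alone, 5160 after quantile normalization, and 4537 to 4876 without 1 library at a time. The higher genes numbered 2091 to 2240, the lower 2444 to 2643, the interactions 3399 to 3627 and the calls without LiCl 4531 to 4758 when 1 library was left out. Of the called genes, 4443 to 4569 were called in the same direction each time. The share of higher genes was 45.38% to 49.13% over the settings. The 157 genes past an adjusted p of 0.01 and a difference of 2 became 501 with a pseudocount of 0.1, which raises the differences of low genes, and 160 to 170 without 1 library. With a difference of more than 1 required, 1151 genes remained. Library numbers were not taken to pair the samples, since deviations of WT and HSF1 KO libraries of the same number with LiCl had r of 0.02, 0.014 and 0.125. Over all pairs of groups, r was -0.01 to 0.138 for libraries 1 and 2 and 0.125 to 0.195 for library 3, so the unnumbered libraries did deviate together. With a replicate block, 4103 genes were called in the 8 numbered libraries, against 4554 there without it, and 5752 in all 12, and interactions were 2691, 3207 and 4375. The block on 12 libraries moved lower HSP70 and HSP110 genes from 4 to 7, lower HSP90 genes from 0 to 2, lower m6A genes from 1 to 4 and higher ribosomal protein genes from 10 to 15. Interactions of mitosis genes fell from 14 to 6 with the block on the 8 numbered libraries. Of the named values called in the main fit, none reversed, and changes of sign among values not called were not counted. Calls of named genes, Hsf1, Hspa1b and Hspa9 among them, were lost in 3 to 7 cases without 1 library, in 13 in the 8 numbered libraries and in 17 with the block on these. With 3 libraries a group and unknown depth, differences of genes near 0 FPKM are the least certain.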
